A study of Mus musculus with 13 samples.

Results

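Expression of 10 genes of the trophoblast, the outer lineage of the early embryo that forms the placenta, was read out in mouse embryonic stem (ES) cells with and without the maintenance DNA methyltransferase DNMT1. The 10 genes are a list of names: Elf5, Cdx2, Eomes, Tfap2c, Hand1, Gata3, Plac1, Krt7, Krt8 and Krt18. All 10 were found among the 26797 genes of the replicate libraries and, by the same Ensembl identifiers, among the 49671 genes of a joint count table. WT cells were untreated AinV15, an ES line built for inducible expression, and Dnmt1-/- cells were the untreated D1-null strain with the C allele of Dnmt1, which is a single line. Polyadenylated RNA of each was sequenced in 3 replicate libraries. The joint table holds 1 WT and 1 Dnmt1-/- column, which are labelled by genotype alone and tied to none of the replicates. Each was treated here as 1 library. The joint table also holds 1 library each of WT ES cells that expressed dCas9-OGA or dCas9-OGA-D242A with 4 sgRNAs against IAP retrotransposons. By the study's methods, these cells were selected with G418 and induced with doxycycline before harvest. OGA is the enzyme that removes O-GlcNAc from proteins, and D242A is a mutation in its catalytic site. All RNA samples were grown on gelatin with serum and leukemia inhibitory factor. The genotype and the cell line differ together between WT and Dnmt1-/-, so they cannot be told apart. DNA methylation itself was not measured in the files used here.

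As background, trophoblast and ES cells descend from lineages that separate in the blastocyst. CDX2, EOMES, ELF5, TFAP2C and GATA3 are transcription factors of the trophoblast stem cell, and HAND1 drives the formation of trophoblast giant cells. Elf5 is the textbook case of a lineage gate, since its promoter is methylated in ES cells and unmethylated in trophoblast stem cells. KRT8 and KRT18 pair into the keratin filaments of simple epithelia, including trophectoderm, KRT7 is a further keratin of such epithelia, and PLAC1 is a placental surface protein.

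The promoters of Elf5 and of the keratins are shown because Elf5 is the known methylation-gated gene and because the keratins differ among themselves in direction. Each sequence is the 250 bases before the transcription start in RefSeq (GRCm38.p6), written 5′ to 3′ on the strand of the gene, with CpG dinucleotides, the sites that DNMT1 maintains, in capitals. The Elf5 stretches lie at chr2:103411848-103412097 and chr2:103423818-103424067 on the plus strand, for the upstream and the downstream start. The Krt7 stretch lies at chr15:101412153-101412402 on the plus strand, that of Krt8 at chr15:102004343-102004592 on the minus strand, and that of Krt18 at chr15:102027966-102028215 on the plus strand.
Elf5, upstream start: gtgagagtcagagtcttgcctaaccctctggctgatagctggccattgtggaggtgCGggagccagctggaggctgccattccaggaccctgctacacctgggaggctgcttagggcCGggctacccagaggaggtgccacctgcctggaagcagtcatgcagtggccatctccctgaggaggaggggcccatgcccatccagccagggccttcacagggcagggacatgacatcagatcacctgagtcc
Elf5, downstream start: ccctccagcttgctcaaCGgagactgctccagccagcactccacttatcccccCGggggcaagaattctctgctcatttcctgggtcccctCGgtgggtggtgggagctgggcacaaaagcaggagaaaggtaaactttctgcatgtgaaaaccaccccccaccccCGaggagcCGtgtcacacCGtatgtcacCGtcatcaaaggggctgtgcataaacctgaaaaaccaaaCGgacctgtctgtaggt
Krt7: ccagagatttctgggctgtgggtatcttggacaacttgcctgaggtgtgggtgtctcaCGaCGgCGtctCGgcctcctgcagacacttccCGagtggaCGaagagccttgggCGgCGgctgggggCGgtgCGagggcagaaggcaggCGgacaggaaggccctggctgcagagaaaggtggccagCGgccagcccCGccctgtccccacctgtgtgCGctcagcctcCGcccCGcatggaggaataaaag
Krt8: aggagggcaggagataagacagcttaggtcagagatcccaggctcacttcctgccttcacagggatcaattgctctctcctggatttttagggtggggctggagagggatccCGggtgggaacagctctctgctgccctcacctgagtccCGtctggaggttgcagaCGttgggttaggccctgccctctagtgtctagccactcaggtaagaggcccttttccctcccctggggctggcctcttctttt
Krt18: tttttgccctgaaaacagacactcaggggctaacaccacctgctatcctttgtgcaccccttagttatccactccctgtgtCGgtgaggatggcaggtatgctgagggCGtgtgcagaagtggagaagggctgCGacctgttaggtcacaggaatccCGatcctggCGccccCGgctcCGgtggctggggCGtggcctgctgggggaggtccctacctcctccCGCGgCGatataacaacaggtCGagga
The upstream Elf5 stretch holds 2 CpGs and the downstream stretch 8. Krt8 holds 3 CpGs, against 12 in Krt18 and 16 in Krt7.

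RefSeq promoter windows of 300 bases (250 before and 50 after the start) were matched for 8 of the 10 members, with 2 starts each for Elf5 and Plac1. No window was available for Hand1 and Tfap2c. Over all 32851 windows the median was 7 CpGs, and the middle of the distribution ran from 3 to 20 (quartiles). Gata3 held 22 CpGs, Krt7 21, Cdx2 18 and Krt18 17, which is above the median. Eomes and the downstream start of Elf5 held 10 each. Krt8 and the downstream start of Plac1 held 6, and the upstream starts of Elf5 and Plac1 held 3. At least 1 CpG was present in 94.6% of all windows. The member that fell in Dnmt1-/- cells, Krt7, and members that rose, such as Gata3 and Krt18, thus stand above the median. Krt8, which also rose, stands below it. This count says nothing of whether the sites were methylated.

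**Figure D1:**
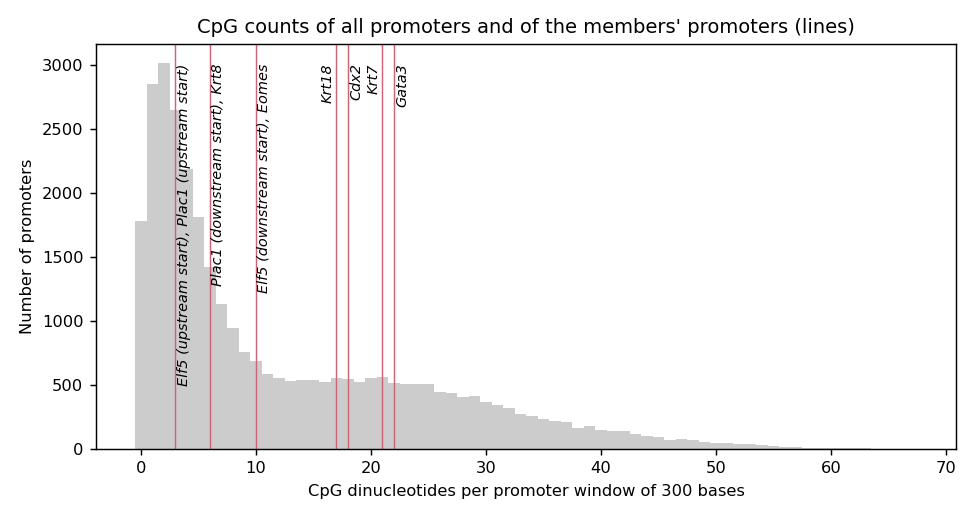
Number of promoters (vertical axis) by CpG dinucleotides per 300-base window (horizontal axis) for 32851 RefSeq promoters, with red lines at the windows of 8 members. The members range from 3 CpGs (upstream starts of Elf5 and Plac1) to 22 CpGs (Gata3), on both sides of the median of 7.

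The replicate libraries hold between 26846275 and 37112247 reads on genes in WT and between 27934568 and 30950554 in Dnmt1-/-. Their values are the authors' normalised signal, which is the read count divided by a scaled library size. Dnmt1 itself had a signal of 308 to 352 in WT and of 73.6 to 77.6 in Dnmt1-/-, a log2 fold change of -2.14 (limma adjusted p = 1.10e-20). The summed signal of 9 ES cell markers was 5773 to 5920 in WT and 5614 to 6004 in Dnmt1-/-. The labels do not say whether replicates were separate cultures, so p-values measure the spread between these libraries only.

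Of the 10 members, 9 passed the filter on low counts and were tested, and Elf5 did not pass. In Dnmt1-/- cells 8 of the 9 were higher, where 35.8% of the 17297 genes tested were, and 1, Krt7, was lower, where 35.4% of the genes tested were (limma on log2(signal + 0.5), adjusted p below the threshold of 0.05). Plac1 passed the filter only through the Dnmt1-/- libraries, and Cdx2 passed it in 3 Dnmt1-/- and 2 WT libraries where 3 were needed. Both thus met the filter through the group in which they are higher, so their calls were in part fixed by it and the count of 8 is a description only. The groups did not overlap for any of the 9, nor for Elf5. Among all genes tested 73.3% had groups that did not overlap. The median log2 fold change was 1.03 over the 9 members and 0.01 over all genes tested. Bulk libraries cannot tell more RNA per cell from more cells that express a gene.

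Hand1 (ENSMUSG00000037335, chr11:57828705-57832818), the giant cell regulator, had the largest rise among the members tested. Its signal was 0.688, 0.623 and 0.79 in the WT libraries and 8.98, 8.94 and 9.91 in the Dnmt1-/- libraries. A gene represented by 67 reads over the WT libraries was thus represented by 799 in Dnmt1-/-. The mean rose from 0.7 ± 0.0842 to 9.28 ± 0.548 (SD, n = 3), a ratio of 13.2. The log2 fold change was 3.03 ± 0.12 (SE; limma adjusted p = 8.65e-17), and without the pseudocount edgeR on the recovered reads gave 3.72. Hand1 lies on chromosome 11, where the median log2 fold change over 1198 protein-coding genes was 0.38. The medians for the chromosomes of the other members lay between -0.01 and 0.09. The part of that shift in the Hand1 value was not tested.

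Among the stem cell regulators, Eomes (ENSMUSG00000032446, chr9:118478212-118486132), a T-box factor, was higher in every Dnmt1-/- library. Its signal was 3.73, 4.28 and 4.56 in WT and 9.82, 9.2 and 9.1 in Dnmt1-/-, with means of 4.19 ± 0.422 and 9.37 ± 0.388 (SD, n = 3). The log2 fold change was 1.08 ± 0.10 (SE; limma adjusted p = 1.20e-09). An antisense gene within its bounds, Gm33460, had 21 reads in each group against 406 and 809 for Eomes.

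Gata3 (ENSMUSG00000015619, chr2:9857078-9890034), a zinc finger factor, had a signal of 2.1, 3.14 and 2.33 in WT and of 5.19, 5.62 and 6.04 in Dnmt1-/-. The lowest Dnmt1-/- library was above the highest WT library, although WT replicate 2 stood above the other two. The means were 2.52 ± 0.548 and 5.62 ± 0.427 (SD, n = 3), and the log2 fold change was 1.03 ± 0.13 (SE; limma adjusted p = 1.19e-07). The annotation places 3 other genes within the bounds of Gata3, none of them in the replicate files. The labels name a TruSeq kit that does not mark strand, the study's methods name a stranded one, and the strand setting of the counting is not given in the sources used here, so reads of overlapping genes cannot be told apart.

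Tfap2c (ENSMUSG00000028640, chr2:172549593-172558622) was the only one of these factors with a high signal already in WT, and its rise was small. The signal was 40.9, 42.1 and 44.4 in WT and 55.9, 59 and 62 in Dnmt1-/-. The mean rose by a ratio of 1.39, and the log2 fold change was 0.47 ± 0.06 (SE; limma adjusted p = 8.62e-08). AP-2γ, its product, is also known to be made in ES cells.

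Cdx2 (ENSMUSG00000029646, chr5:147300805-147307270), the caudal homeobox factor of the trophectoderm, stayed close to the detection limit in both groups. Its signal was 0.72, 0.286 and 0.431 in WT and 0.87, 1.02 and 0.884 in Dnmt1-/-, from 45 and 80 reads in all. WT replicate 1 came close to the Dnmt1-/- libraries, and the groups did not overlap. The log2 fold change was 0.56 ± 0.16 (SE; limma adjusted p = 0.00327) and 0.97 by edgeR (adjusted p = 0.00675).

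Elf5 (ENSMUSG00000027186, chr2:103411688-103450989) was detected at a few reads per library. The recovered reads were 1, 4 and 0 in the WT libraries and 7, 14 and 11 in the Dnmt1-/- libraries. Each Dnmt1-/- library therefore held more reads than any WT library, at a level that failed the filter of 10 reads at the median depth in 3 libraries. Over the group totals the ratio of Dnmt1-/- to WT was 6.73, with an exact 95% counting interval of 2.6 to 22.1 that covers counting error only. Fitted without the filter, the log2 fold change was 0.67 (limma adjusted p = 1.52e-04), a value compressed by the pseudocount of 0.5, which exceeds the signal of Elf5 in all 6 libraries. Per kilobase of exon its mean signal in Dnmt1-/- was 0.0629, against 0.409 for Cdx2 and 57.2 for Krt8.

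Plac1 (ENSMUSG00000061082, chrX:53069995-53240111), the placental surface gene, had 1, 4 and 7 reads in the WT libraries and 12, 15 and 10 in the Dnmt1-/- libraries. The ratio over group totals was 3.24, with an exact 95% counting interval of 1.65 to 6.83. The log2 fold change was 0.57 ± 0.16 (SE; limma adjusted p = 0.00319) and 1.74 by edgeR (adjusted p = 0.00274). The pseudocount also exceeds the signal of Plac1 in all 6 libraries, which compresses the first of these values.

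The keratins split. Krt8 (ENSMUSG00000049382, chr15:101996698-102004482), the type II partner of simple epithelia, had a signal of 36.9, 35.7 and 32.8 in WT and of 112, 114 and 110 in Dnmt1-/-. Its log2 fold change was 1.66 ± 0.05 (SE; limma adjusted p = 2.25e-18), and the means differed by a ratio of 3.19. Krt18 (ENSMUSG00000023043, chr15:102028180-102032027), the type I partner and the next coding gene along the chromosome, had 23.8, 25.1 and 20.2 in WT and 54.3, 54.3 and 51.3 in Dnmt1-/-. Its log2 fold change was 1.20 ± 0.07 (SE; limma adjusted p = 1.14e-13). The signal of Krt8 was 1.42 to 1.62 times that of Krt18 in the WT libraries and 2.06 to 2.14 times in the Dnmt1-/- libraries, so the pair rose unequally in every library.

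Krt7 (ENSMUSG00000023039, chr15:101411043-101430313) went the other way. Its signal was 12.2, 12.2 and 8.69 in WT and 6.69, 5.75 and 6.23 in Dnmt1-/-, with the lowest WT library still above the highest Dnmt1-/- library. The log2 fold change was -0.76 ± 0.11 (SE; limma adjusted p = 1.49e-06). The signal of Krt7 was 26.5 to 34.1% of that of Krt8 in WT and 5.05 to 5.97% in Dnmt1-/-. Fibroblast markers moved with Krt7. All 10 listed markers were lower in Dnmt1-/-, with a summed signal of 1380, 1617 and 1134 in the WT libraries and 290, 301 and 270 in Dnmt1-/-, and WT replicate 3 was the lowest WT library for both. It was also the lowest WT library for Krt8, Krt18 and Krt19, which were higher in Dnmt1-/-. The part of these markers in the Krt7 value was not tested. None of the 10 fibroblast markers was at 0 in every library. Lum passed the filter on low counts only through WT, where it is higher.

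**Figure D2:**
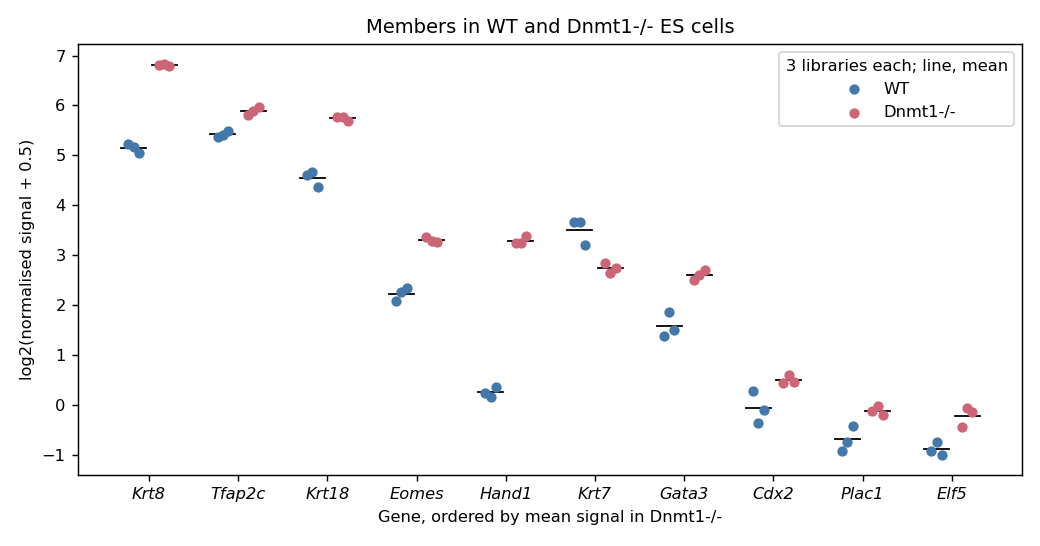
Signal of the 10 members in each replicate library, on the log2(normalised signal + 0.5) scale (vertical axis), with 3 points per group and a line at their mean. The groups do not overlap for any gene, and Krt7 is the gene for which WT lies above Dnmt1-/-.

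**Figure D3:**
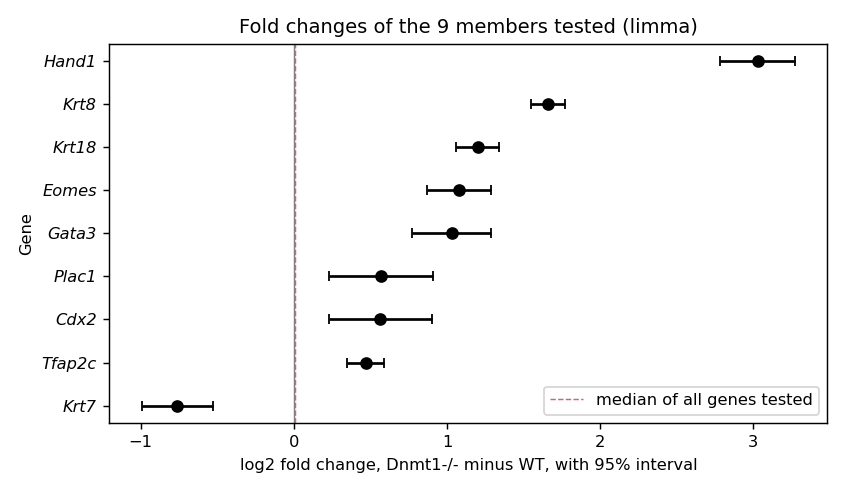
Log2 fold change of Dnmt1-/- minus WT with its 95% interval (horizontal axis) for the 9 members tested (vertical axis), from limma. Hand1 lies at 3.03 and Krt7 at -0.76, and the dashed line is the median of all genes tested, 0.01.

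Per kilobase of exon, the order of the mean signal changed little between the groups. In WT it ran from Krt8 (17.9) and Krt18 (16) through Tfap2c (11.6), Krt7 (1.56), Eomes (1.01), Gata3 (0.635), Hand1 (0.351), Cdx2 (0.212) and Plac1 (0.0927) to Elf5 (0.00775). The libraries overlapped between Krt8 and Krt18, between Hand1 and Cdx2, and between Cdx2 and Plac1, so the ranges of these neighbours were not separate, although within each WT library Krt8 was above Krt18, Hand1 above Cdx2 and Cdx2 above Plac1. In Dnmt1-/- the order was Krt8 (57.2), Krt18 (37.1), Tfap2c (16), Hand1 (4.65), Eomes (2.26), Gata3 (1.41), Krt7 (0.883), Cdx2 (0.409), Plac1 (0.306) and Elf5 (0.0629), with no overlap between neighbours. Hand1 moved from the seventh to the fourth place and Krt7 from the fourth to the seventh.

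Of 16 further trophoblast stem cell regulators, all tested, 4 were higher and 9 lower in Dnmt1-/-, with a median log2 fold change of -0.20. Over all genes tested 35.8% were higher and 35.4% lower, so calls in both directions are not particular to these genes. Tead4, the factor that acts upstream of Cdx2 in the embryo, rose with a log2 fold change of 1.68 (limma adjusted p = 1.57e-17). Arid3a (0.62) and Ets2 (0.56) rose as well. The largest falls were those of Gata2 (-0.85), Msx2 (-0.79) and Pcsk6 (-0.65). Tfap2a fell by 0.64 on the log2 scale.

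Within families the members and their relatives therefore differed in direction. Gata3 rose and Gata2 fell, while Gata4, a primitive endoderm factor, rose (0.41) and Gata6 did not pass the test (0.12, adjusted p = 0.0963 by limma). Tfap2c rose and Tfap2a fell. Among further keratins, Krt19 of simple epithelia had a mean of 11.7 ± 2.19 in WT and of 30.6 ± 1.54 in Dnmt1-/- (SD, n = 3), and rose by 1.37 on the log2 scale. Krt5 rose (0.46), Krt14 fell (-2.06) and Krt15 did not pass the test (-0.05, limma adjusted p = 0.814), the 3 being keratins of stratified epithelia with a low signal.

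Of 17 listed genes of differentiated trophoblast present in the files, 14 were tested, of which 9 were higher and 2 lower (35.8% and 35.4% over all genes tested), with a median log2 fold change of 0.57. Peg10, an imprinted gene needed for the placenta, rose from a mean of 118 to 686 (log2 fold change 2.54, limma adjusted p = 1.75e-21). Rhox6, a reproductive homeobox gene, rose from a mean of 2.66 to 8.46 (limma adjusted p = 3.00e-11), and Itgb3, an integrin subunit, rose from 10.1 to 25.8. The falls were Cdkn1c (-1.94) and Phlda2 (-0.89), which are imprinted genes that restrain placental growth. Of the genes that define giant cells and their secretory products, Prl3d1 and Ctsq were too low to be tested, with means of 0.0819 and 0 in Dnmt1-/-, and Prl2c2 did not pass the test (-0.01, limma adjusted p = 0.961).

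Of 14 genes of simple epithelium, 12 were higher and 1 lower (35.8% and 35.4% over all genes tested), with a median of 0.63. Cldn7 (1.79) and Cldn6 (1.49), tight junction proteins, had the largest rises, followed by Krt19. Perp, a desmosomal protein, fell by 0.65 on the log2 scale. Lists of other lineages can be read against the shares over all genes tested, 35.8% higher and 35.4% lower. Of 9 primitive endoderm markers tested 7 were higher and 2 were not called, with a median of 0.86, and their summed signal was 888 to 979 in WT and 1217 to 1277 in Dnmt1-/-. Of 6 surface ectoderm markers tested 4 were higher and 1 lower, and of 8 mesoderm markers 2 were higher and 3 lower. Of 9 ES cell markers 2 were higher and 3 lower, which like the mesoderm counts is near or below these shares. Afp of the primitive endoderm and Mesp1 of the mesoderm were too low to be tested. Hoxb1 and Mixl1 of the mesoderm passed the filter only through the group in which they are higher, WT and Dnmt1-/- in turn. The part of other cell types in the members' values was not tested.

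**Figure D4:**
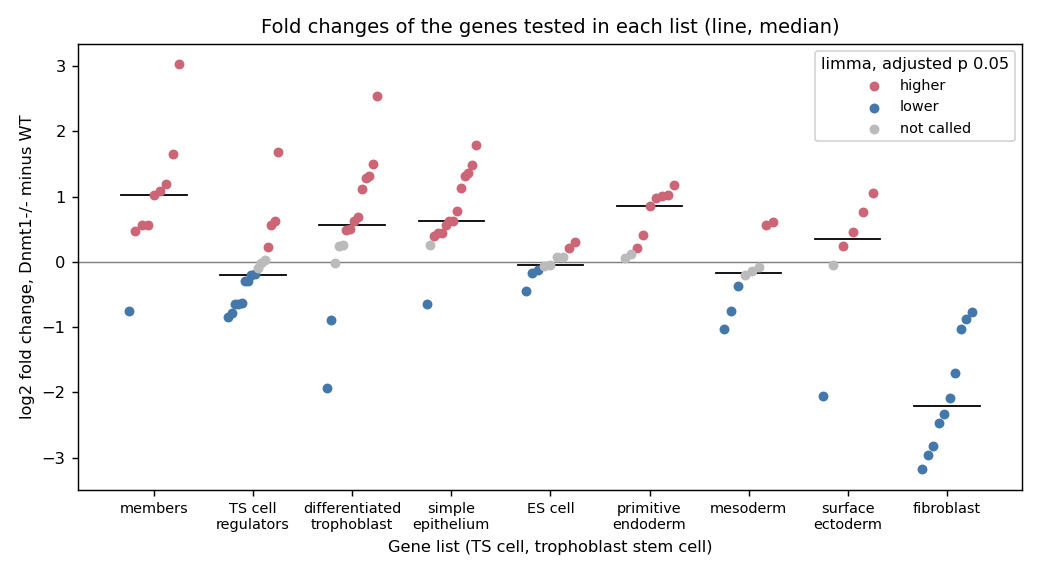
Log2 fold change of Dnmt1-/- minus WT (vertical axis) for each gene tested in the members and 8 further lists (horizontal axis), coloured by the limma call, with a line at the median of each list. The members' median is 1.03, that of trophoblast stem cell regulators -0.20, and all 10 fibroblast markers lie below 0.

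Around the members, the nearest coding gene in the files on each side gave 18 neighbours that are not members, of which 12 were tested, 6 were higher, 4 lower and 2 not called. With 35.8% higher and 35.4% lower among all genes tested, this is no result about the neighbours, and their values are given as context. Next to Krt7, Krt80 fell (-0.86), while Eif4b beside Krt18 rose (0.23). Sap30l and Larp1, which flank Hand1, rose by 0.71 and 0.51. Cat beside Elf5 rose (0.69), as did Hprt beside Plac1 (2.38), while Fam122b on the other side of Plac1 fell (-0.17).

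The 4 single libraries gave a different picture of the same genes. Their totals range from 18693531 counts on genes (Dnmt1-/-) to 25097983 (WT). Each condition has 1 library, so replicate spread is unknown here and no test was made. Values are cpm (the count divided by the library total, on the usual scale of this unit) after scaling with edgeR's TMM factors, and ratios are those of cpm with an exact 95% interval for counting error only. Genes were compared where the pair summed to at least 100 counts. The single libraries were normalised apart from the replicates, so only directions within each table are set side by side.

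In the single WT library 8 of the 10 members had their highest level of the 4 libraries, the exceptions being Tfap2c and Elf5. Between Dnmt1-/- and WT, 8 members had enough counts, of which 7 were at least 2-fold lower in Dnmt1-/- and 0 at least 2-fold higher. Of all 12593 genes compared 6.89% were at least 2-fold lower and 10.5% at least 2-fold higher. Cdx2, Hand1, Gata3 and Krt7 reached the minimum of 100 counts only through WT, where they are high. Their place among the 7 was thus in part fixed by that minimum, and the count is a description. Dnmt1 itself stood at 13.4% of its WT level.

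The Krt8 count was 6760 for WT, 380 for Dnmt1-/-, 1299 for dCas9-OGA and 1333 for dCas9-OGA-D242A. Dnmt1-/- thus stood at 7.33% (6.59 to 8.13%) of WT, the reverse of the order in the replicates. Krt18 had 4727, 484, 429 and 1582 counts in the same order of libraries, and Dnmt1-/- stood at 13.4% (12.1 to 14.7%) of WT. Krt7, with 745, 55, 58 and 185 counts, stood at 9.63% (7.18 to 12.7%) of WT, and it is the member that was lower in Dnmt1-/- in both tables.

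Krt8 has a copy in the genome. Krt8-ps, a pseudogene on chromosome 7 listed in the joint table and not in the replicate files, had 2264, 136, 458 and 445 counts, which is 33.4 to 35.8% of the Krt8 count in each library. How reads were divided between the copies was not tested, so the level of Krt8 is uncertain. WT was highest and Dnmt1-/- lowest for either gene.

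Among the regulators, Cdx2 had 159 counts in WT and 4, 7 and 3 in Dnmt1-/-, dCas9-OGA and dCas9-OGA-D242A, and Dnmt1-/- stood at 3.28% (0.883 to 8.56%) of WT. Hand1 had 589, 72, 7 and 162 counts in the order used above, and Dnmt1-/- stood at 15.9% (12.3 to 20.4%) of WT. Gata3, with 135, 31, 8 and 27 counts, stood at 29.9% (19.6 to 44.5%). These 3 genes were higher in Dnmt1-/- in the replicate libraries and lower in the single library.

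Tfap2c had 1329, 435, 1320 and 2198 counts and stood at 42.7% (38.2 to 47.6%) of WT in Dnmt1-/-. Eomes, with 358, 161, 123 and 64 counts, stood at 58.6% (48.4 to 70.8%), short of a 2-fold difference. Elf5 had 5, 6, 1 and 5 counts and Plac1 had 32, 1, 5 and 11, too few to be compared, and the Dnmt1-/- level of Plac1 was 4.07% (0.1 to 24.4%) of WT.

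**Figure D5:**
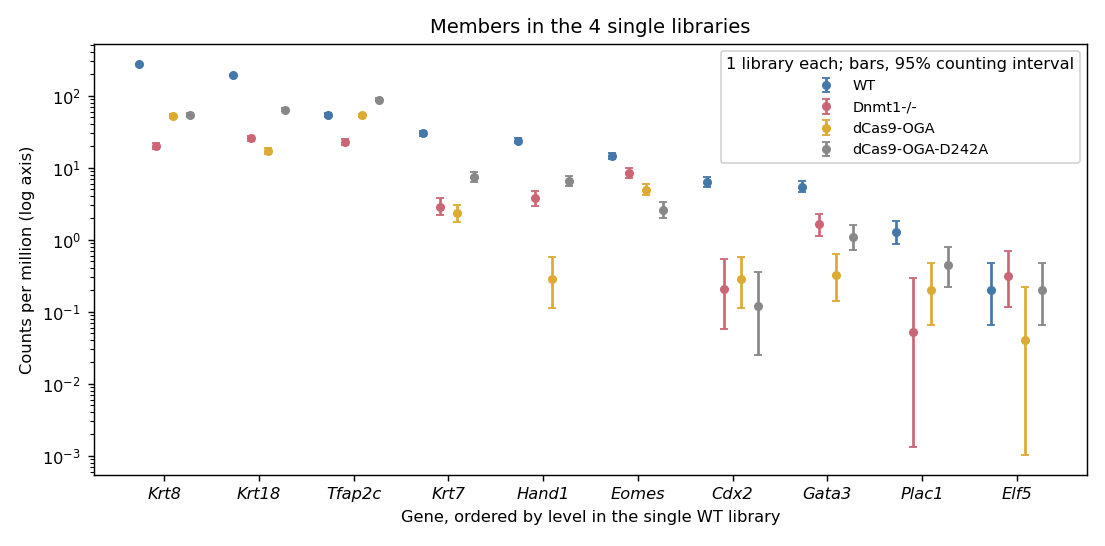
Level in cpm of the 10 members (log axis, vertical) in the 4 single libraries, 1 point per library with its exact 95% counting interval. WT lies highest for 8 genes, Krt8 at 273 cpm in WT against 20 cpm in Dnmt1-/-, and the intervals of Elf5 overlap in all 4 libraries.

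The other lists, set against 6.89% of all genes lower and 10.5% higher, were as follows in this pair of libraries. At least 2-fold lower in Dnmt1-/- were 10 of 16 trophoblast stem cell regulators, 8 of 11 differentiated trophoblast genes, 6 of 8 primitive endoderm markers, 4 of 5 mesoderm markers, 4 of 6 fibroblast markers, 1 of 2 surface ectoderm markers and 3 of 14 genes of simple epithelium, with 0 at least 2-fold higher in any of these lists. None of 9 ES cell markers was 2-fold apart. For 8 of the 10 members WT was the highest of the 4 single libraries. Whether the difference between the 2 tables lies with the WT or the Dnmt1-/- library was not tested.

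The comparison of dCas9-OGA with its inactive form asks whether recruiting OGA to IAP sequences changed these genes. Of 6 members with enough counts, 3 were at least 2-fold lower in dCas9-OGA and 0 at least 2-fold higher, where 7.22% and 4.88% of 12722 genes were. Hand1 and Krt7 reached the minimum of 100 counts only through dCas9-OGA-D242A, where they are high, so their calls were in part fixed by that minimum. Hand1 stood at 4.33% (1.71 to 9.12%) of its dCas9-OGA-D242A level, Krt18 at 27.2% (24.4 to 30.2%) and Krt7 at 31.4% (23 to 42.4%). Krt8 stood at 97.6% (90.3 to 105%), so Krt8 and Krt18, which rose together in the replicates, parted here. The count of Krt8 was 3.03 times that of Krt18 in dCas9-OGA and 0.843 times in dCas9-OGA-D242A.

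Tfap2c stood at 60.1% (56.1 to 64.4%) of its dCas9-OGA-D242A level and Eomes at 192% (141 to 265%), both short of 2-fold. Gata3, Cdx2, Plac1 and Elf5 had under 100 counts over the pair. The median log2 ratio was -1.11 over the 6 members, Hand1 and Krt7 included, and 0.03 over all genes compared. Of 14 trophoblast stem cell regulators 3 exceeded 2-fold in favour of dCas9-OGA and 1 in favour of its inactive form (median 0.41), and of 11 differentiated trophoblast genes 1 and 3 did (median -0.07). Of 14 genes of simple epithelium 2 and 1 did (median -0.01). Among other lineages the counts were 4 and 0 of 7 primitive endoderm markers (median 1.01), 2 and 0 of 9 ES cell markers (0.57), 1 and 0 of 1 mesoderm marker (1.90), 0 and 0 of 2 surface ectoderm markers (0.14) and 0 and 2 of 6 fibroblast markers (-0.46). The part of these cell types in the members' ratios was not tested.

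Set against the same single WT library, which these comparisons share, 7 of 8 members were at least 2-fold lower in dCas9-OGA-D242A, where 8.28% of 12933 genes were lower and 12.5% higher. Likewise 7 of 8 were at least 2-fold lower in dCas9-OGA, where 9.78% of 12746 genes were lower and 14% higher. The eighth was Tfap2c in both. Cdx2 and Gata3 reached 100 counts only through WT, where they are high, in either comparison. The same held for Eomes against dCas9-OGA-D242A, and for Hand1 and Krt7 against dCas9-OGA. Since WT was the highest of the 4 libraries for 8 members, these counts and that for Dnmt1-/- are not independent of each other.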

How the data were processed

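Polyadenylated RNA was measured in 8 samples, and 5 ChIP-seq samples were not analysed here. Reads were mapped to mm10 (HISAT2 2.1.0 for the replicates and TopHat2 2.0.11 for the dCas9-OGA samples in the submitters' processing notes) and counted on genes with featureCounts 1.5.0. The values that the authors deposited for the 6 replicates are a normalised signal, the count divided by a scaled library size. Header names in those tables are shifted, and the signal was identified by its position. Whole reads were recovered from the steps of the signal (100% of values within 0.01 of a whole read). For the 4 single libraries the authors deposited raw counts per gene and per repeat subfamily, and the dCas9-OGA sample files equal the joint table.

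WT and Dnmt1-/- replicates were compared on log2(signal + 0.5) with limma 3.58.1 (trend), over genes kept by edgeR's filterByExpr on recovered reads, with Benjamini-Hochberg adjustment over all 17297 genes at 0.05. edgeR 4.0.16 (quasi-likelihood), DESeq2 1.42.0, other pseudocounts, no filter, TMM rescaling, a replicate block and left-out libraries were alternatives. The script was tested on simulated data. Single libraries were compared without a test on log2(cpm + 0.5) with TMM factors of 0.988 to 1.017, among genes with at least 100 counts summed. Replicate pairs within a group differed by more than sampling noise (chi-square per degree of freedom of 2.67 to 8.96). Coordinates and exon lengths came from GENCODE vM21 on GRCm38, which matched 26679 of 26797 identifiers. The members, all lists and the rule for named genes (all members, the 3 largest rises and falls of each trophoblast or epithelial list, relatives of members, neighbours and pseudogenes) were chosen with earlier results of these data known. R 4.3.3 was used.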

Additional observations from a re-analysis of the deposited data

Results flagged for a closer look

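The difference between Dnmt1-/- and WT had opposite directions in the replicate libraries and in the single libraries for 6 members that were called in the first and at least 2-fold apart in the second. Krt8 had a log2 fold change of 1.66 in the replicates and a log2 ratio of -3.74 in the single libraries, and for Krt18 the values were 1.20 and -2.88. Cdx2 had 0.56 and -3.28, Hand1 3.03 and -2.50, Gata3 1.03 and -1.48, and Tfap2c 0.47 and -1.21. The single-library value of Cdx2 rests on 4 counts in Dnmt1-/- and is compressed by the pseudocount of 0.5 cpm, with -4.63 at 0.05 cpm and -1.93 at 2 cpm. The difference between the tables was not tested, since each single condition has 1 library and the tables were normalised separately.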

How the results depend on the processing

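Across the alternatives the 8 rises and 1 fall among the members kept their direction and stayed past the threshold: all 117 refitted log2 fold changes of the 9 tested members did so. The number of members called higher was 8 or 9 (9 without the filter and in 4 of the 6 fits that left out a library, where Elf5 was tested too; with 0 WT and 2 Dnmt1-/- libraries over the filter's minimum, it entered the latter through the group in which it is higher), and that of members called lower was 1 throughout. Calls over all genes numbered 12324, with 11404 by DESeq2, 12252 by edgeR, 13271 without the filter and 11723 to 12289 with a library left out. Leaving out each library in turn moved Cdx2 from 0.42 to 0.73, Plac1 from 0.46 to 0.71 and Krt7 from -0.92 (without WT replicate 3) to -0.68. A pseudocount of 0.05 moved the log2 fold change of Plac1 from 0.57 to 1.60 and a pseudocount of 2 moved it to 0.19. With the replicate number as a block, 12556 genes, 8 members higher and 1 lower were called. Deviations of same-numbered WT and Dnmt1-/- libraries were correlated with r of 0.074, -0.0164 and 0.0652, against -0.0838 to 0.00896 for differently numbered ones. Whether same-numbered libraries share a batch was not tested. In the single libraries 160 log2 ratios were recomputed under other scalings and pseudocounts. Of these, 152 moved by no more than the distance from the ratio without a pseudocount to its counting bound on that side. A log2 ratio with the pseudocount can itself lie outside its interval, as for Cdx2 between Dnmt1-/- and WT (-3.28, interval -6.82 to -3.55). The other 8 of the 160 moved further, with a pseudocount of 2 cpm and without a change of sign. Depth limits Elf5, Plac1 and Cdx2, which have 37, 49 and 125 reads over 6 libraries.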

Other observations

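LTRs of the RLTR13 group, whose D5 subfamily is known to serve as an enhancer in mouse trophoblast stem cells, are listed as 23 subfamilies in the repeat counts of the 4 single libraries. RLTR13D5 itself had 75 (WT), 69 (Dnmt1-/-), 92 (dCas9-OGA) and 80 (dCas9-OGA-D242A) counts, a level of 3.03 to 3.71 cpm that differed little between the libraries. RLTR13G had 3621, 2056, 11352 and 3633 counts in the same order, a log2 ratio of dCas9-OGA to dCas9-OGA-D242A of 1.64 (exact 95% counting interval 1.59 to 1.70). Of 14 RLTR13 subfamilies with at least 100 counts over that pair, 3 exceeded 2-fold in favour of dCas9-OGA and 0 in the other direction, where 5.43% of all 534 transposon subfamilies compared were at least 2-fold higher, with a median log2 ratio of 0.52 against 0.32 over all. Between Dnmt1-/- and WT, 0 of 12 were at least 2-fold higher, where 3.38% of all 474 subfamilies were. None of the 12 was at least 2-fold lower. The share of all subfamilies at least 2-fold lower was not computed for either pair, so counts in that direction have no background. Subfamilies share sequence, and each condition has 1 library.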
